A study of Homo sapiens with 9 samples.

Results

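The antisense RNAs that A549 cells, a human lung adenocarcinoma cell line, express at a measurable level were examined together with the genes that they face. Their members were the features with a single gene symbol ending in -AS and 1 digit whose mean FPKM over the 9 libraries was at least 0.3, with EPB41L4A-AS1 left out. This gave 261 of the 848 features with such a name, of 56252 features listed in all. Each was set against the gene named before -AS, which had a row of its own for 221 members (218 different genes), lay only in a row that joins several genes for 20, and had no row for 20. The members were thus chosen by their measured level, the mean FPKM over all 9 libraries, which is given as a description: ZNF561-AS1 (0.301), PPP1R12A-AS1 (0.301) and CCDC18-AS1 (0.302) lay just inside it, and SMARCA5-AS1 (0.298), ERICH6-AS1 (0.289) and LMLN-AS1 (0.289) just outside.

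The cells were transfected for 48 h with 50 nM of scrambled siRNA, siCyclin K#1 or siCyclin K#2, and 3 libraries of total RNA were sequenced for each. Both Cyclin K siRNAs target CCNK, which encodes Cyclin K, the partner of the transcriptional kinases CDK12 and CDK13. A549 is a single tumour line. The labels do not say whether the libraries of a group came from separate cultures, and the methods speak of independent experiments only in general, so that the p-values measure the spread between these libraries. Where both Cyclin K siRNAs form 1 group, that spread also holds the difference between the siRNAs. FPKM counts fragments per length of the gene and per depth of the library, and a fold change is given on the log2(FPKM + 0.1) scale, which understates the change of low genes. CCNK had 6.90, 7.06 and 7.10 FPKM with scrambled siRNA, 0.891, 0.816 and 0.720 under siCyclin K#1, and 0.809, 0.920 and 0.802 under siCyclin K#2, so that 11.5% and 12.0% of its level were left. The libraries held an estimated 31333595 to 33768064 reads each. Of the 7 epithelial and A549 markers with rows of their own, ALDH1A1, AKR1C2, KRT8 and KRT18 had 49.7 FPKM or more in every library, CDH1 had 1.19 to 4.6, and EPCAM and KRT19 had at most 0.279. The blood and endothelial markers listed summed to at most 0.043 FPKM in any library. Of the 3 fibroblast markers, COL1A1 had 1.79 to 2.21 FPKM with scrambled siRNA, 13.7 to 14.7 under siCyclin K#1 and 3.1 to 3.3 under siCyclin K#2, PDGFRA had 3.4 to 4.78 over the 9 libraries, and COL1A2 was listed at 0 in all but 1 library, where it had 0.0111. The part of these marker levels in the results below was not tested.

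Antisense RNAs are long noncoding RNAs transcribed from the strand opposite to a gene. Many start close to the start of that gene and run away from it, from a shared promoter that fires both ways, others start inside the gene, and others run into its end. Many are spliced and polyadenylated, and many stay in the nucleus and are short-lived, being removed by the RNA exosome, and only some have a known function of their own.

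Among the 261 members, 82 were head to head with the sense gene with overlapping ends, 47 were head to head within 2 kb without overlap, 63 lay within the sense gene, 50 met it tail to tail, 10 contained it, 2 lay otherwise within 2 kb and 7 had no gene of that name in the annotation (GENCODE 29). A transcript start within 300 bases of a start of the sense gene was annotated for 122 members. Exons of 164 members shared bases with exons of the sense gene on the other strand, exons of 182 with those of any gene, and 14 members were covered over more than 50% of their exon bases. Whether reads were counted by strand is not given in the sources used here, and without strand the reads of a gene and of its antisense partner cannot be told apart where exons overlap. A single exon was annotated for 29 members, and the exon length had a median of 1972 bases. In the annotation 189 members were typed as antisense, 39 as lincRNA, 23 as processed transcript, and NCBP2-AS2 as protein-coding.

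The RefSeq promoter windows (GRCh38.p14, 250 bases before to 50 bases after a gene's start) matched 198 members. The match was by Entrez gene identifier, or by symbol where the identifier was not found. Promoters are shown for pairs that the results below turn on. MAFG-AS1 starts 115 bases from MAFG and fell with it, and BAIAP2-AS1 starts 241 bases from BAIAP2 and rose with it. NRSN2-AS1 had the largest rise on the log2(FPKM + 0.1) scale, and STARD4-AS1 rose while STARD4 fell. Distances between starts are by GENCODE here and below, and the RefSeq starts that place the windows can differ. The windows lie at chr17:81927715-81927878 (plus strand, without the 136 bases that lie in exons of a coding gene), chr17:81034670-81034969 (minus strand), chr20:325203-325502 (minus strand, a RefSeq start inside the GENCODE gene) and chr5:111511976-111512275 (plus strand). The RefSeq window of NRSN2 lies at chr20:346861-347160, so that the NRSN2-AS1 window shown is not at the start that faces NRSN2. Capitals mark GGGCGG (the GC box), CCAAT and an NRF1-like motif on either strand.
MAFG-AS1: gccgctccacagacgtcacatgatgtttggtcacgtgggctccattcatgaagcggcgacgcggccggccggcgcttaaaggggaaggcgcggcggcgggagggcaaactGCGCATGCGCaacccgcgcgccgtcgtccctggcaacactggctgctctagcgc
BAIAP2-AS1: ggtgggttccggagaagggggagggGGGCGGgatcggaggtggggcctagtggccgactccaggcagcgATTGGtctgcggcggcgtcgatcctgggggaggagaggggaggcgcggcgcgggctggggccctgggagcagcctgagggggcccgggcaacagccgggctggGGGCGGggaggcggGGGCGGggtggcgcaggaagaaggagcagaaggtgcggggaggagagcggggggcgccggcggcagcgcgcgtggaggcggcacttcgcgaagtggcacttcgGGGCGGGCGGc
NRSN2-AS1: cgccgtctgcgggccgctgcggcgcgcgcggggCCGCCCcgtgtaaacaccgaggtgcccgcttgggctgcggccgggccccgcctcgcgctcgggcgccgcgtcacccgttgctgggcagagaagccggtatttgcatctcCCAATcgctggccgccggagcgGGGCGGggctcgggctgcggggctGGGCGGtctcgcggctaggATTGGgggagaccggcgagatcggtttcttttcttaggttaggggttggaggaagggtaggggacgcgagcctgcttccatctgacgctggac
STARD4-AS1: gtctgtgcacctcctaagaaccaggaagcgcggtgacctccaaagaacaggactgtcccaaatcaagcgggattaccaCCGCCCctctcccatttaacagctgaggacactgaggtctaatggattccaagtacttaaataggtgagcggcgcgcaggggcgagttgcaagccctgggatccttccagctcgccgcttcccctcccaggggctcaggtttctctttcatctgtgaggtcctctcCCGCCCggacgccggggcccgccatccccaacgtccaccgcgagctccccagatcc
None of these windows holds TATAAA. The BAIAP2-AS1 window holds GGGCGG at 5 places, that of NRSN2-AS1 at 3 and that of STARD4-AS1 at 2. MAFG-AS1 has the NRF1-like motif at 1 place.

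Over the 198 windows the GC content had a median of 64.7%, against 58.7% over all 35116 RefSeq promoters and 62.3% over the 22199 of protein-coding genes. The ratio of observed to expected CpG had a median of 0.782, against 0.579 and 0.737. GGGCGG was present in 60.6% of the windows (all promoters 45.0%, protein-coding 56.3%), CCAAT in 32.8% (34.6% and 34.7%), TATAAA in 8.08% (11.5% and 9.47%) and the NRF1-like motif in 4.55% (1.24% and 1.5%). The YY1-like and ZNF143-like motifs were present in 1 and 0 windows. The motifs do not contain one another, and the overlap of their matches was not resolved. Both windows were at hand for 179 pairs, and in 59 of these they shared bases (median 208), so that the windows of a pair are not independent. A match is a description of the letters. The 198 windows belong to RNAs chosen by their level, while the promoters compared with them were not chosen so. The part of that choice in these differences was not tested.

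The antisense RNAs were low in level next to their sense genes. With scrambled siRNA their median was 0.64 FPKM, and that of the sense genes 5.22 FPKM, per length on the same scale. In the pair the antisense RNA had a median of 12.4% of the level of the sense gene, and it exceeded the sense gene in 24 of 215 pairs. The mean over the 9 libraries was at least 1 for 83 members and at least 10 for 5. For 170 members the values came out as whole reads, and the library with the fewest reads had a median of 18 reads and that with the most 56.5, so that counting error is large for the low members.

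**Figure D1:**
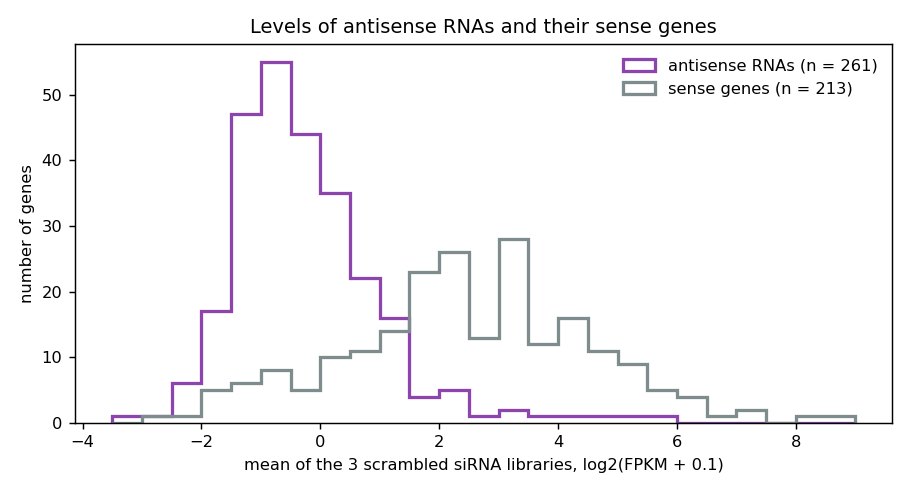
Number of genes (vertical axis) by the mean level of the 3 scrambled siRNA libraries, as log2(FPKM + 0.1) on the horizontal axis, for the 261 antisense RNAs and the 213 sense genes tested. The antisense RNAs lie mostly below the sense genes, with medians of 0.64 and 5.22 FPKM.

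The 6 most abundant members had log2 fold changes between -0.77 and 0.35. MIF-AS1, which meets the cytokine gene MIF tail to tail on chromosome 22 (23894426 to 23898930), had 53.2, 51.9 and 46.6 FPKM with scrambled siRNA, 31.6, 27.7 and 31.7 under siCyclin K#1 and 39.7, 41.3 and 40.4 under siCyclin K#2. The 6 siCyclin K libraries lay below the scrambled ones without overlap, and the log2 fold change was -0.53 (SE 0.13, adjusted p = 0.014). The call was lost without scrambled siRNA replicate 1 (adjusted p = 0.064) or 2 (0.058), and 46.5% of the exon bases of MIF-AS1 lie in exons of MIF.

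LRRC75A-AS1, a host gene of small nucleolar RNAs on chromosome 17 (16438822 to 16478678), had 42.5, 42.4 and 43.4 FPKM with scrambled siRNA, 31.6, 32.2 and 32.1 under siCyclin K#1 and 32.4, 32.5 and 32.7 under siCyclin K#2. It was the most even of these between libraries and fell by 0.40 on the log2 scale (SE 0.04, adjusted p = 1.3e-04). FGD5-AS1, on chromosome 3 (14920347 to 14948424), had 27.2, 28.1 and 29.5 FPKM with scrambled siRNA, 19.1, 17.9 and 19.2 under siCyclin K#1 and 22.1, 20.8 and 20.8 under siCyclin K#2. The groups did not overlap, and it fell by 0.50 (SE 0.07, adjusted p = 8.0e-04).

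AGAP2-AS1, within AGAP2 on chromosome 12 (57726271 to 57728356), had 16.4, 16.1 and 15.2 FPKM with scrambled siRNA, 20.8, 23.1 and 22.8 under siCyclin K#1 and 17.4, 18.5 and 19.6 under siCyclin K#2. All 6 libraries lay above the scrambled ones, with a log2 fold change of 0.35 (SE 0.10, adjusted p = 0.023). This call was lost without any one of the scrambled libraries (adjusted p = 0.058, 0.067 and 0.091 without replicate 1, 2 and 3).

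OIP5-AS1, the conserved noncoding RNA also called cyrano, lies on chromosome 15 (41283990 to 41309737). It had 13.3, 16.0 and 15.4 FPKM with scrambled siRNA, 6.92, 5.33 and 16.8 under siCyclin K#1 and 9.02, 9.77 and 7.75 under siCyclin K#2. A single library of siCyclin K#1 was as high as the controls and the other 5 were below them. The log2 fold change was -0.77 (SE 0.29, adjusted p = 0.074), and -0.96 without siCyclin K#1 replicate 3 (adjusted p = 0.0052). THAP9-AS1 had 8.47, 7.90 and 8.44 FPKM with scrambled siRNA, 10.7, 11.6 and 11.7 under siCyclin K#1 and 9.22, 9.21 and 9.12 under siCyclin K#2, a log2 fold change of 0.30 (SE 0.10) that missed the threshold (adjusted p = 0.053). It passed it without any one of the siCyclin K#2 libraries (adjusted p = 0.044, 0.044 and 0.040 without replicate 1, 2 and 3).

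With both Cyclin K siRNAs as 1 group, 41 of the 261 antisense RNAs were higher and 24 lower than with scrambled siRNA at an adjusted p under 0.05. That is 15.7% and 9.20%, where 17.0% and 11.5% of all 21048 genes tested were called, so that the share was near the background. The split was 37 higher and 30 lower after median-ratio rescaling and 36 and 31 after quantile normalization, and 14 and 15 among the 83 members with a mean of at least 1 FPKM. The share of all genes at that higher minimum is not given, so that the last counts have no background beside them. The median log2 fold change was 0.06 over the members and 0.06 over all genes. All 6 siCyclin K libraries lay above all 3 scrambled ones for 47 members and below for 24, against 18.9% and 13.7% of all genes. In bulk RNA, fewer cells with an RNA and less of it per cell cannot be told apart. A fold over 3 at an unadjusted p under 0.01, the study's thresholds, was reached by 6 members upwards and 3 downwards (1.43% and 0.865% of all genes).

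Of the 41 that were higher, 14 had under 0.3 FPKM with scrambled siRNA, and these entered the list through the libraries where they are high. Of the 24 lower members, 2 were under 0.3 FPKM over the siCyclin K libraries. The count of 65 fell to 43 without scrambled siRNA replicate 3, and 34 members (19 higher, 15 lower) were called whichever library was left out. Of 114 long intergenic RNAs with LINC names and the same minimum, 27 were higher and 12 lower, and of the 213 sense genes 50 were higher and 37 lower. No test between these lists was made.

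**Figure D2:**
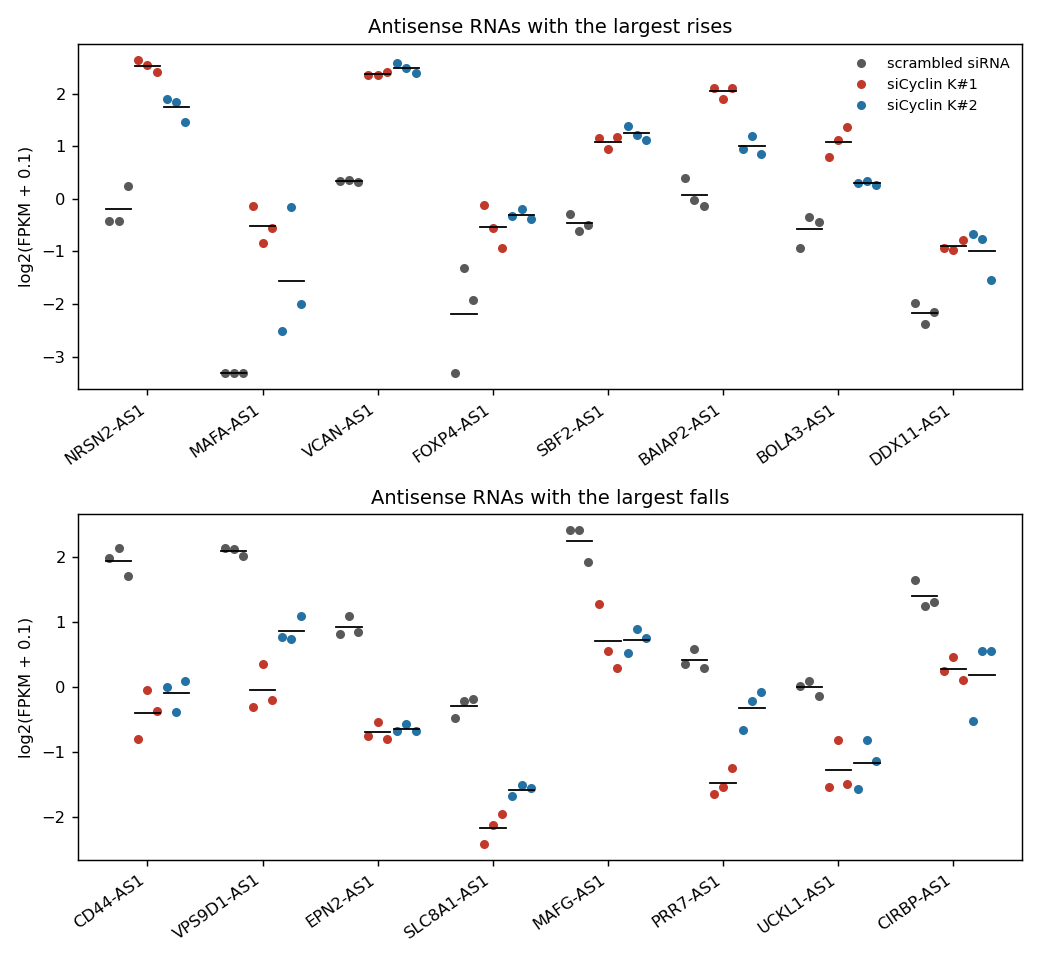
Level of each library as log2(FPKM + 0.1) (vertical axis) for the 8 antisense RNAs with the largest rises and the 8 with the largest falls among those called and without overlap between groups; points are libraries, coloured by siRNA, and bars are means of 3 libraries. The libraries of both siCyclin K siRNAs lie on the same side of the scrambled ones for all 16 RNAs.

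On the log2(FPKM + 0.1) scale the largest rise among called members was that of NRSN2-AS1 (ENSG00000225377), head to head with the neurensin gene NRSN2 on chromosome 20 (320313 to 348224). It had 0.643, 0.646 and 1.09 FPKM with scrambled siRNA, 6.18, 5.73 and 5.24 under siCyclin K#1 and 3.66, 3.51 and 2.65 under siCyclin K#2. The lowest siCyclin K library, at 2.65 FPKM, lay above the highest scrambled one, at 1.09. The log2 fold change was 2.34 (SE 0.28, adjusted p = 2.2e-04). The exact permutation p was 0.0119, the smallest that 6 against 3 libraries allow. Rises and falls were named only where the groups did not overlap. That choice sets this p-value near its minimum, so that it adds no support. NRSN2 had 3.13, 3.18 and 3.37 FPKM with scrambled siRNA and 1.8 to 4.73 in the siCyclin K libraries, a log2 fold change of -0.37 (SE 0.25, adjusted p = 0.31). No exon bases of the pair overlap.

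VCAN-AS1 (ENSG00000249835) lies within VCAN, the gene of the matrix proteoglycan versican, on chromosome 5 (83531352 to 83581320). It had 1.17, 1.18 and 1.15 FPKM with scrambled siRNA, 5.00, 5.03 and 5.21 under siCyclin K#1 and 5.91, 5.51 and 5.17 under siCyclin K#2. The siRNAs were alike in size, and the log2 fold change was 2.09 (SE 0.08, adjusted p = 4.0e-07). VCAN rose by 1.10 (SE 0.05, adjusted p = 8.5e-07), from 15.0, 14.7 and 14.9 FPKM to 30.5 to 33.4. Exons of VCAN hold 51.7% of the exon bases of VCAN-AS1, and the part of these reads in the result was not tested. VCAN-AS1 was the only member on more than 1 row, and its rows were summed.

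SBF2-AS1, which meets SBF2 tail to tail on chromosome 11 (9758292 to 9811319), had 0.722, 0.551 and 0.612 FPKM with scrambled siRNA, 2.12, 1.84 and 2.15 under siCyclin K#1 and 2.53, 2.23 and 2.09 under siCyclin K#2. It rose by 1.63 on the log2 scale (SE 0.13, adjusted p = 1.8e-05) with no overlap of the groups, and SBF2 was only in a joined row. BAIAP2-AS1 had 1.21, 0.888 and 0.807 FPKM with scrambled siRNA, 4.25, 3.64 and 4.25 under siCyclin K#1 and 1.84, 2.18 and 1.72 under siCyclin K#2. It rose by 1.45 (SE 0.32, adjusted p = 0.0076). BAIAP2, an adaptor of the actin cytoskeleton that starts 241 bases away on the other strand, rose by 1.08 (SE 0.12, adjusted p = 1.3e-04), and no exon bases overlap.

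FOXP4-AS1 had 0, 0.303 and 0.165 FPKM with scrambled siRNA, 0.827, 0.581 and 0.422 under siCyclin K#1 and 0.699, 0.774 and 0.672 under siCyclin K#2, which is 0 to 25 reads. It rose by 1.77 (SE 0.39, adjusted p = 0.0074). The forkhead factor gene FOXP4, head to head with it, rose by 2.43 (SE 0.10, adjusted p = 3.7e-07), from 1.15, 0.982 and 0.909 FPKM to 5.51 to 6.55. The ratio of the pair changed by -0.66 (SE 0.43, adjusted p = 0.30).

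BOLA3-AS1, which starts 15 bases from BOLA3, a gene of iron-sulphur cluster assembly, had 0.420, 0.685 and 0.639 FPKM with scrambled siRNA, 1.63, 2.07 and 2.48 under siCyclin K#1 and 1.14, 1.17 and 1.10 under siCyclin K#2. It rose by 1.27 (SE 0.28, adjusted p = 0.0071), while BOLA3 rose by 0.25 (SE 0.07, adjusted p = 0.029). The call for BOLA3 was lost without any one of the scrambled libraries (adjusted p = 0.095, 0.097 and 0.073 without replicate 1, 2 and 3). DDX11-AS1, head to head with the DNA helicase gene DDX11, was low, with 0.153, 0.0928 and 0.125 FPKM with scrambled siRNA and 0.244 to 0.529 in the siCyclin K libraries. It rose by 1.23 (SE 0.23, adjusted p = 0.0031), and DDX11 had a log2 fold change of 0.19 (adjusted p = 0.29). MAFA-AS1 was listed at 0 in all scrambled libraries, so that no fold is given, and had 0.815, 0.459 and 0.582 FPKM under siCyclin K#1 and 0.0746, 0.794 and 0.151 under siCyclin K#2. MAFA-AS1 thus reached the minimum through the siCyclin K libraries alone.

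On the same scale the largest fall was that of CD44-AS1 (ENSG00000255443), which lies within CD44, the gene of the hyaluronan receptor, on chromosome 11 (35210343 to 35214985). It had 3.83, 4.28 and 3.15 FPKM with scrambled siRNA, 0.474, 0.870 and 0.672 under siCyclin K#1 and 0.901, 0.667 and 0.962 under siCyclin K#2. No siCyclin K library reached 1 FPKM, and the fall was by 2.19 on the log2 scale (SE 0.21, adjusted p = 5.3e-05). The exact permutation p of 0.0119 was again set by naming members without overlap. CD44 fell by 0.65 (SE 0.16, adjusted p = 0.013, and 0.071 without scrambled siRNA replicate 1), from 14, 11.6 and 10.8 FPKM to 6.06 to 10.0. Of the exon bases of CD44-AS1, 14.3% lie in exons of CD44.

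VPS9D1-AS1, within VPS9D1 on chromosome 16 (89711856 to 89718165), had 4.29, 4.23 and 3.95 FPKM with scrambled siRNA, 0.707, 1.18 and 0.774 under siCyclin K#1 and 1.61, 1.57 and 2.02 under siCyclin K#2. It fell by 1.68 (SE 0.30, adjusted p = 0.0022), while VPS9D1 had a log2 fold change of 0.16 (SE 0.18, adjusted p = 0.56). EPN2-AS1, within the epsin gene EPN2 on chromosome 17 (19296596 to 19306261), had 1.66, 2.04 and 1.70 FPKM with scrambled siRNA, 0.495, 0.587 and 0.476 under siCyclin K#1 and 0.525, 0.573 and 0.524 under siCyclin K#2. It fell by 1.59 (SE 0.13, adjusted p = 2.5e-05) with like levels under both siRNAs.

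MAFG-AS1 (ENSG00000265688), on chromosome 17 (81927829 to 81930753), had 5.22, 5.22 and 3.69 FPKM with scrambled siRNA, 2.31, 1.37 and 1.12 under siCyclin K#1 and 1.33, 1.76 and 1.58 under siCyclin K#2. It fell by 1.54 (SE 0.21, adjusted p = 5.1e-04). MAFG, a small MAF protein that pairs with NRF2, starts 115 bases away on the other strand and fell by 0.37 (SE 0.08, adjusted p = 0.0087, and 0.053 without scrambled siRNA replicate 2).

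PRR7-AS1 had 1.18, 1.40 and 1.12 FPKM with scrambled siRNA, 0.218, 0.244 and 0.321 under siCyclin K#1 and 0.530, 0.761 and 0.849 under siCyclin K#2, and fell by 1.31 (SE 0.37, adjusted p = 0.024). The call was lost without any one of the scrambled libraries (adjusted p = 0.070, 0.090 and 0.063 without replicate 1, 2 and 3). UCKL1-AS1, a single-exon RNA head to head with the uridine kinase-like gene UCKL1, had 0.812 to 0.965 FPKM with scrambled siRNA and 0.236 to 0.470 in the siCyclin K libraries. It fell by 1.22 (SE 0.23, adjusted p = 0.0030), and UCKL1 fell by 0.72 (SE 0.15, adjusted p = 0.0058). CIRBP-AS1, within the gene of the cold-inducible RNA-binding protein CIRBP, had 2.27 to 3.04 FPKM with scrambled siRNA and 0.595 to 1.36 in the siCyclin K libraries. It fell by 1.17 (SE 0.24, adjusted p = 0.0050), while CIRBP rose by 0.41 (SE 0.13, adjusted p = 0.040). The call for CIRBP was lost without any one of the scrambled libraries, siCyclin K#1 replicate 1 or 2, or siCyclin K#2 replicate 1 or 2 (adjusted p = 0.063 to 0.18).

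A list of 23 antisense RNAs known from cancer or nuclear biology had 15 members above the minimum, of which 4 were higher and 2 lower, where 17.0% and 11.5% of all genes were called. The higher ones were FOXP4-AS1, SBF2-AS1 and DDX11-AS1, given above, and ZEB1-AS1. FOXP4-AS1 and DDX11-AS1 were under 0.3 FPKM with scrambled siRNA and reached the minimum through the siCyclin K libraries. ZEB1-AS1, head to head with the gene of the transcription factor ZEB1, had 0.441, 0.336 and 0.314 FPKM with scrambled siRNA and 0.448 to 0.774 in the siCyclin K libraries, a rise of 0.62 (SE 0.21, adjusted p = 0.048). This call was lost without scrambled siRNA replicate 1, 2 or 3 (adjusted p = 0.063, 0.14 and 0.16), siCyclin K#1 replicate 1 or 2 (0.084 and 0.082) and siCyclin K#2 replicate 1 or 3 (0.066 and 0.078).

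The lower ones were FGD5-AS1 and TMPO-AS1. TMPO-AS1, head to head with the nuclear lamina gene TMPO, had 2.11, 2.59 and 2.79 FPKM with scrambled siRNA and 1.29 to 2.13 in the siCyclin K libraries, and fell by 0.50 (SE 0.16, adjusted p = 0.045). Its call was lost without scrambled siRNA replicate 2 or 3 (adjusted p = 0.14 and 0.17), any siCyclin K#1 library (0.079, 0.059 and 0.074 without replicate 1, 2 and 3) and siCyclin K#2 replicate 2 (0.057). Others that did not pass had log2 fold changes of 0.66 (MAPKAPK5-AS1, adjusted p = 0.080, and 0.017 without scrambled siRNA replicate 2), 0.22 (FOXD2-AS1), 0.14 (HIF1A-AS2), 0.04 (PSMA3-AS1), -0.05 (HOXA-AS2), -0.06 (GABPB1-AS1), -0.12 (THUMPD3-AS1) and -0.77 (OIP5-AS1).

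Set against their sense genes, 24 of the 215 pairs with both genes tested had both called. In 10 both were higher, in 5 both were lower, in 7 the antisense RNA was higher and the sense gene lower, and in 2 the antisense RNA was lower and the sense gene higher. The FPKM minimum favours higher antisense RNAs in these counts. FOXP4-AS1, EPHA5-AS1, CLIP1-AS1 and STARD4-AS1, all in them, were under 0.3 FPKM with scrambled siRNA. They reached the minimum through the siCyclin K libraries. In 27 pairs only the antisense RNA was called, in 64 only the sense gene and in 100 neither. Over all genes tested 17.0% were higher and 11.5% lower, over the members 15.7% and 9.2%, and over the sense genes 23.5% and 17.4%. Whether more pairs had both called than these shares alone would give was not tested. The pairs that fell together were CD44-AS1, MAFG-AS1, UCKL1-AS1, TMPO-AS1 and HHIP-AS1 with their sense genes, the last named after its values were seen. Those with a lower antisense RNA and a higher sense gene were SLC8A1-AS1 and CIRBP-AS1. Across the 215 pairs the log2 fold changes of antisense RNA and sense gene had a Pearson's r of 0.22 and a Spearman's rho of 0.19, given as a description, since both genes come from the same libraries. The r was 0.22 over the 136 pairs with exon overlap and 0.22 over the 79 without.

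The ratio of antisense RNA to sense gene was tested in the same libraries over all 428 pairs in the files with both genes tested, and 21 of the 215 pairs of the members had a higher and 19 a lower ratio. Over the 428 pairs 7.24% were higher and 8.64% lower. The 40 calls among the members fell to 25 and 24 without scrambled siRNA replicate 2 and 3, and the count was 84 with a pseudocount of 1.

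Of the 9 pairs called in opposite directions, that of STARD4-AS1 (ENSG00000246859) had the largest change of the ratio. It starts near the gene of the sterol transfer protein STARD4 on chromosome 5 (111512226 to 111739726), and had 0.198, 0.305 and 0.239 FPKM with scrambled siRNA, 0.894, 0.838 and 0.473 under siCyclin K#1 and 0.543, 0.544 and 0.556 under siCyclin K#2. It rose by 1.07 (SE 0.23, adjusted p = 0.0058). Its mean with scrambled siRNA was under 0.3 FPKM, so that it reached the minimum through the siCyclin K libraries. STARD4 had 12.6, 11.7 and 13.1 FPKM with scrambled siRNA, 4.88, 5.05 and 5.03 under siCyclin K#1 and 3.73, 3.24 and 2.97 under siCyclin K#2, a fall by 1.59 (SE 0.18, adjusted p = 1.7e-04). Neither gene overlapped between groups, and the log2 ratio rose by 2.67 (SE 0.26, adjusted p = 1.9e-04). STARD4 exons hold 2.20% of the exon bases of STARD4-AS1.

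The ratio of NRSN2-AS1 to NRSN2 rose by 2.71 (SE 0.42, adjusted p = 0.0019). That of PSMG3-AS1 to PSMG3, a proteasome assembly chaperone, rose by 1.45 (SE 0.31, adjusted p = 0.0086): the antisense RNA rose by 1.00 (adjusted p = 0.0096, and 0.051 without scrambled siRNA replicate 1) and PSMG3 fell by 0.45 (adjusted p = 0.012, and 0.059 without scrambled siRNA replicate 2). ZSCAN16-AS1 had a ratio higher by 1.52 (SE 0.25, adjusted p = 0.0027) with a log2 fold change of 0.28 (adjusted p = 0.32) of its own. Here the zinc finger gene ZSCAN16 fell by 1.24 (SE 0.15, adjusted p = 2.2e-04), from 3.14, 2.97 and 3.45 FPKM to 1.08 to 1.65.

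In the other direction, SVIL-AS1 had 6.82, 2.38 and 7.05 FPKM with scrambled siRNA, 1.95, 1.94 and 2.04 under siCyclin K#1 and 1.3, 4.52 and 1.93 under siCyclin K#2. The groups overlapped, and the log2 fold change was -1.17 (SE 0.41, adjusted p = 0.057). It passed without scrambled siRNA replicate 2 (-1.67, adjusted p = 0.013) or siCyclin K#2 replicate 2 (-1.38, adjusted p = 0.015). The actin-binding supervillin gene SVIL rose by 1.68 (SE 0.27, adjusted p = 0.0012), and the ratio changed by -2.85 (SE 0.50, adjusted p = 0.0035).

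SLC8A1-AS1, which meets the gene of the sodium-calcium exchanger SLC8A1 tail to tail, had 0.618, 0.765 and 0.782 FPKM with scrambled siRNA, 0.0878, 0.129 and 0.159 under siCyclin K#1 and 0.214, 0.25 and 0.24 under siCyclin K#2. It fell by 1.58 (SE 0.24, adjusted p = 9.6e-04), while SLC8A1 rose by 0.78 (SE 0.17, adjusted p = 0.0063), and the ratio changed by -2.36 (SE 0.34, adjusted p = 0.0015). B4GALT1-AS1 had 0.261 to 0.667 FPKM with scrambled siRNA and 0.298 to 1.54 in the siCyclin K libraries, a log2 fold change of 0.41 (adjusted p = 0.54). The galactosyltransferase gene B4GALT1 rose by 2.70 (SE 0.08, adjusted p = 1.2e-07), from 20.7 to 20.9 FPKM to 121 to 149, and the ratio changed by -2.29 (SE 0.40, adjusted p = 0.0035).

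The ratio of VPS9D1-AS1 to VPS9D1 changed by -1.84 (SE 0.40, adjusted p = 0.010, and 0.058 without scrambled siRNA replicate 2). That of COL5A1-AS1 to the collagen gene COL5A1 changed by -1.74 (SE 0.49, adjusted p = 0.035). COL5A1 rose by 1.25 (SE 0.24, adjusted p = 0.0040), while COL5A1-AS1 had 0 to 0.747 FPKM over the 9 libraries. Its ratio missed the threshold without any one of the scrambled libraries or of siCyclin K#2 replicates 1 and 2, with adjusted p-values of up to 0.13.

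**Figure D3:**
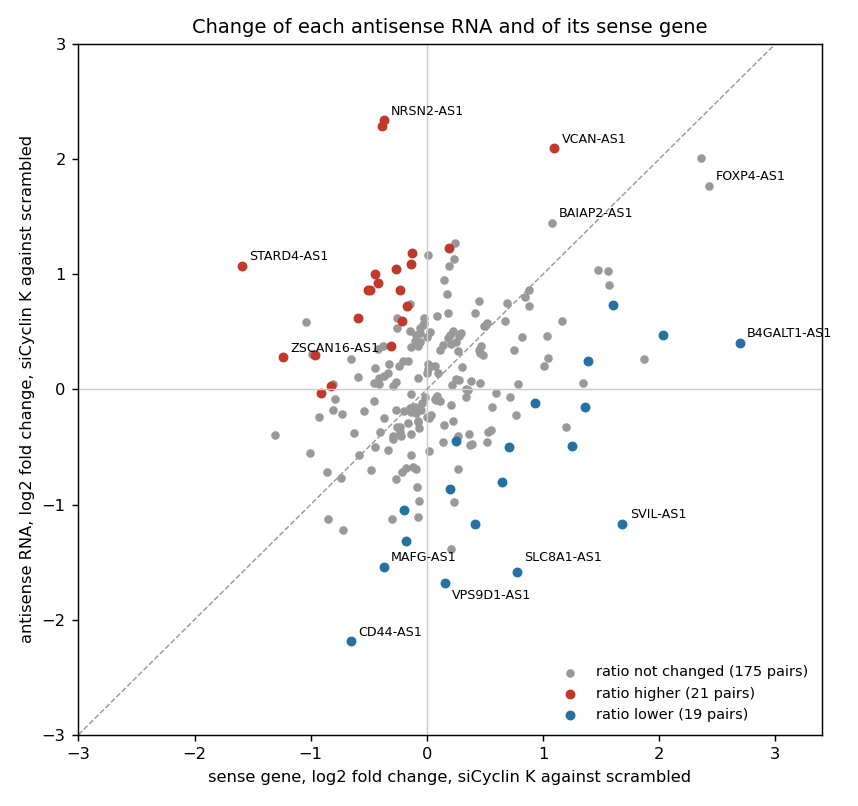
Log2 fold change of each antisense RNA (vertical axis) against that of its sense gene (horizontal axis), both siCyclin K siRNAs against scrambled siRNA, for 215 pairs; points are pairs, coloured where the ratio was higher (21) or lower (19), and the dashed line marks equal change. STARD4-AS1 lies at the upper left, with 1.07 against -1.59, and B4GALT1-AS1 at the right, with 0.41 against 2.70.

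By arrangement, 16 of the 82 head to head members with overlap were higher and 10 lower, and 6 and 2 of the 47 without overlap. Within the sense gene 9 of 63 were higher and 5 lower, and 3 and 0 of the 10 that contain their sense gene. Of the 50 tail to tail members 4 were higher and 7 lower. These counts are read against 17.0% higher and 11.5% lower over all genes. The median log2 fold change was -0.18 for the tail to tail members (-0.25 under both rescalings) and 0.22 for those head to head with overlap (0.15 and 0.12), while that of the members within the sense gene, 0.05, was -0.02 and -0.05 after rescaling. The correlation of antisense RNA and sense gene was 0.35 over 69 pairs head to head with overlap, 0.35 over 42 without, 0.25 over 55 within the sense gene and -0.19 over 37 tail to tail. Pairs are not replicates, and no test between arrangements was made.

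**Figure D4:**
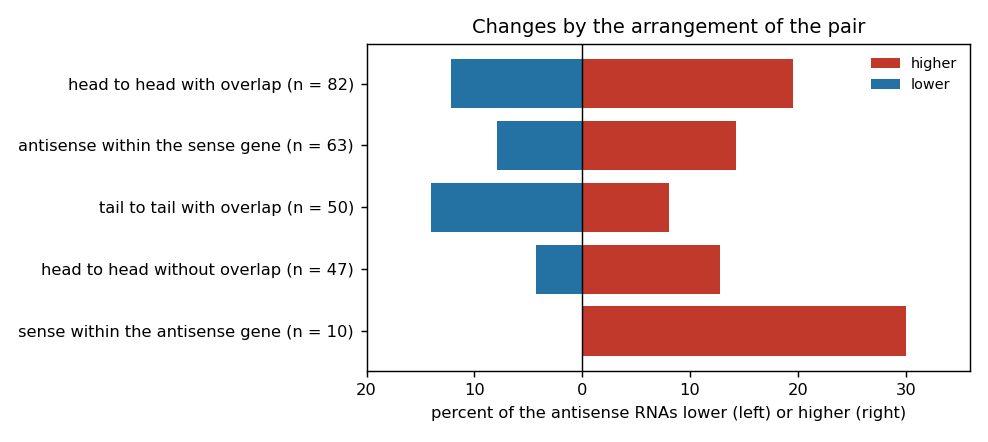
Percent of the antisense RNAs that were higher (right) or lower (left) with both siCyclin K siRNAs against scrambled siRNA, for the 5 arrangements with at least 10 members; n is the number of members. In the tail to tail group 7 of 50 were lower and 4 higher, and in the largest group 16 of 82 were higher and 10 lower.

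Each siRNA was also compared with scrambled siRNA alone. With siCyclin K#1 72 members were higher and 33 lower (26.8% and 18.1% of all genes were called), and under siCyclin K#2 44 were higher and 29 lower (19.8% and 15.2%). Both comparisons use the same scrambled libraries. The split under siCyclin K#1 depended on the scaling, with 53 higher and 44 lower after median-ratio rescaling and 46 and 56 after quantile normalization, which moved the median log2 fold change of all genes from 0.10 to -0.02. Of the called members 68.6% were higher in the main fit, 54.6% after median-ratio rescaling and 45.1% after quantile normalization. Of all genes called, the shares were 59.7%, 49.7% and 50.3%.

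Compared directly, 36 members were higher and 22 lower under siCyclin K#1 than under siCyclin K#2, where 17.1% and 12.3% of all genes were called. This split too depended on the scaling: it was 31 and 28 after median-ratio rescaling and 18 and 35 after quantile normalization. Of the called members 62.1% were higher in the main fit, 52.5% after median-ratio rescaling and 34.0% after quantile normalization. Of all genes called, the shares were 58.1%, 46.7% and 52.0%.

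EPHA5-AS1, head to head with the ephrin receptor gene EPHA5, had 0, 0.125 and 0.196 FPKM with scrambled siRNA, 1.38, 1.17 and 1.5 under siCyclin K#1 and 0.495, 0.287 and 0.175 under siCyclin K#2. It was higher under siCyclin K#1 by 1.85 (adjusted p = 0.010), and EPHA5 had 0.0721 to 0.0798 FPKM with scrambled siRNA, 1.70 to 2.11 under siCyclin K#1 and 0.266 to 0.399 under siCyclin K#2. Exons of EPHA5 hold 42.5% of the exon bases of EPHA5-AS1, and the part of these reads was not tested. Against scrambled siRNA, both siRNAs together gave 2.01 (SE 0.62, adjusted p = 0.037) with overlapping groups, a call lost without any one scrambled or siCyclin K#1 library (adjusted p = 0.053 to 0.16). EPHA5-AS1 was under 0.3 FPKM with scrambled siRNA and reached the minimum through the siCyclin K libraries.

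ABHD11-AS1, typed as a transcribed pseudogene, had 0.447, 0.379 and 0.419 FPKM with scrambled siRNA, 1.77, 0.916 and 1.51 under siCyclin K#1 and 0.517, 0.227 and 0.237 under siCyclin K#2. Only siCyclin K#1 lay above the other groups, and the difference between the siRNAs was 1.83 (adjusted p = 0.0019). ABHD11 differed by -0.32 (adjusted p = 0.088). PDCD4-AS1, head to head with the translation repressor gene PDCD4, had 1.22, 0.605 and 1.39 FPKM with scrambled siRNA, 2.82, 2.95 and 2.65 under siCyclin K#1 and 1.08, 0.968 and 1.17 under siCyclin K#2, a difference of 1.31 (adjusted p = 0.0041). PDCD4 was also highest under siCyclin K#1, at 18.8 to 22.9 FPKM against 11.3 to 11.8 under siCyclin K#2.

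GAS8-AS1, a single-exon RNA within the ciliary gene GAS8, was low under siCyclin K#2, at 0.313, 0.394 and 0.474 FPKM, and had 1.21, 1.16 and 1.07 under siCyclin K#1 and 0.864, 1.45 and 1.58 with scrambled siRNA. The difference was 1.35 (adjusted p = 0.0019), and that of GAS8 was 0.39 (adjusted p = 0.097). NCBP2-AS2, which starts 26 bases from the cap-binding gene NCBP2, had 7.48, 7.80 and 8.26 FPKM with scrambled siRNA, 7.77, 5.35 and 4.26 under siCyclin K#1 and 11.7, 11.0 and 12.2 under siCyclin K#2. It was lower under siCyclin K#1 by 1.04 on the log2 scale (adjusted p = 0.0025), and no exon bases of the pair overlap. NCBP2 differed by 0.43 in the other direction (adjusted p = 0.21).

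PRR7-AS1, given above, was lower under siCyclin K#1 than under siCyclin K#2, the difference being -1.16 (adjusted p = 0.0022). UPK1A-AS1 differed by -1.17 (adjusted p = 0.011), with 1.64, 2.61 and 1.59 FPKM with scrambled siRNA, 0.7, 1.12 and 0.802 under siCyclin K#1 and 1.92, 2.84 and 1.58 under siCyclin K#2. IPO9-AS1, head to head with the importin gene IPO9, had 0.511 to 0.789 FPKM with scrambled siRNA, 0.121 to 0.326 under siCyclin K#1 and 0.513 to 0.662 under siCyclin K#2, a difference of -1.0 (adjusted p = 0.026). IPO9 went the other way and was higher under siCyclin K#1 by 0.16 (adjusted p = 0.0062). The call for IPO9-AS1 was lost without siCyclin K#2 replicate 2 or 3 (adjusted p of up to 0.082).

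**Figure D5:**
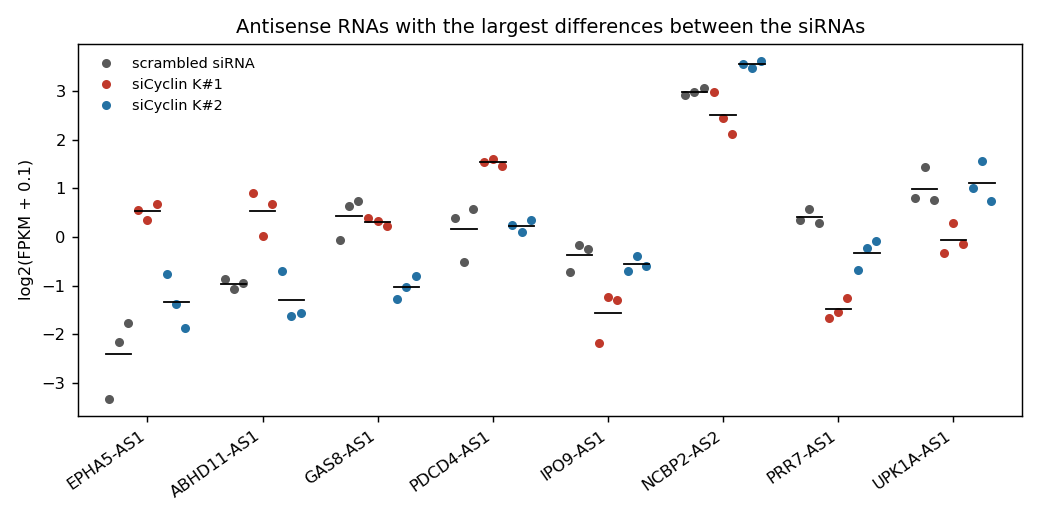
Level of each library as log2(FPKM + 0.1) (vertical axis) for the 8 antisense RNAs with the largest called differences between siCyclin K#1 and siCyclin K#2; points are libraries, coloured by siRNA, and bars are means of 3 libraries. The siCyclin K#1 libraries of PDCD4-AS1 lie at 2.65 to 2.95 FPKM and those of siCyclin K#2 at 0.968 to 1.17.

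Short-lived noncoding RNAs are removed by the exosome and its adaptors, so genes of RNA decay were read beside the members. Of 34 genes listed, 29 had rows of their own, and 3 of these were higher and 13 lower with both siRNAs, where 17.0% and 11.5% of all genes were called. Without scrambled siRNA replicate 3 the counts were 2 and 8, and without replicate 1 or 2 they were 2 and 9. The median log2 fold change was -0.23. DCP2, the mRNA decapping enzyme, had 9.23, 9.94 and 9.42 FPKM with scrambled siRNA, 0.959, 1.46 and 0.936 under siCyclin K#1 and 2.9, 3.39 and 2.75 under siCyclin K#2. The groups did not overlap, and it fell by 2.32 on the log2 scale (SE 0.41, adjusted p = 0.0021). NCBP2, a subunit of the cap-binding complex, fell by 0.81 (SE 0.22, adjusted p = 0.023), a call lost without any one of the scrambled libraries (adjusted p = 0.071, 0.067 and 0.076 without replicate 1, 2 and 3). The exosome subunit EXOSC4 fell by 0.76 (SE 0.09, adjusted p = 2.6e-04), and ZC3H18, which links the cap-binding complex to the exosome, rose by 0.70 (SE 0.10, adjusted p = 7.8e-04). Their part in the levels of the antisense RNAs was not tested.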

How the data were processed

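RNA was measured in 9 libraries of A549 cells, 3 per siRNA (scrambled, siCyclin K#1, siCyclin K#2), grouped and numbered from the sample titles. The authors sequenced paired reads of total RNA on a HiSeq X system, and StringTie 1.3.3b gave the deposited FPKM value of each feature. The aligner, the strand setting and the annotation release are not given in the sources used here. Symbols were taken from files in which they had not been turned into dates. Of the 261 members 251 had the coordinates of GENCODE 29, whose exon lengths turned 82.9% of the nonzero FPKM values into whole reads (within 0.05).

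Features of the same gene were added up. A gene entered the test where 3 or more libraries reached 0.1 FPKM (21048 genes). Values were log2-transformed after adding 0.1 and fitted by limma (version 3.58.1, R 4.3.3, eBayes with trend), and p-values were adjusted by Benjamini-Hochberg over the whole table. Both siRNAs were fitted as 2 groups, and each siRNA and their direct difference as 3 groups. The log2 ratio of antisense RNA to sense gene was fitted without trend over 428 pairs. "Called", "rose" and "fell" mean an adjusted p under 0.05 in limma. Single values had an exact two-sided permutation test (scipy 1.17.1). Fits were tested on simulated data.

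The members and lists were chosen with earlier results of these data known. Named were the 6 most abundant members, the 8 largest rises and falls without overlap of the groups, the 5 largest changes of the ratio and the 4 largest differences between the siRNAs in each direction (all called), known antisense RNAs (1 of them is not reported here), members at the FPKM minimum, and 4 genes of RNA decay. Alternatives were other pseudocounts, filters, scalings, member rules and fits, a replicate block, limma-voom on recovered reads, and leaving out each library.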

Additional observations from a re-analysis of the deposited data

Results flagged for a closer look

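The direct comparison of siCyclin K#1 with siCyclin K#2 found a difference in 17 of the 48 named antisense RNAs (limma, 3 against 3 libraries, adjusted p under 0.05 over all genes, 17.1% and 12.3% of which were called upwards and downwards). On the log2 scale, siCyclin K#1 minus siCyclin K#2, the differences were 1.85 for EPHA5-AS1, 1.83 for ABHD11-AS1, 1.35 for GAS8-AS1, 1.31 for PDCD4-AS1, 1.04 for BAIAP2-AS1, 0.79 for BOLA3-AS1, 0.79 for NRSN2-AS1, 0.3 for THAP9-AS1, 0.26 for AGAP2-AS1 and 0.26 for GABPB1-AS1. They were -0.18 for FGD5-AS1, -0.42 for MIF-AS1, -0.91 for VPS9D1-AS1, -1.0 for IPO9-AS1, -1.04 for NCBP2-AS2, -1.16 for PRR7-AS1 and -1.17 for UPK1A-AS1. Of these, 8 were named for the size of this difference.

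Against scrambled siRNA, the log2 fold changes under siCyclin K#1 and siCyclin K#2 were 2.74 and 1.94 for NRSN2-AS1, 1.97 and 0.93 for BAIAP2-AS1, and 1.67 and 0.88 for BOLA3-AS1. They were -2.14 and -1.22 for VPS9D1-AS1, -1.89 and -0.73 for PRR7-AS1, -0.74 and -0.32 for MIF-AS1, and -0.59 and -0.41 for FGD5-AS1. CCNK itself differed by -0.06 (adjusted p = 0.73) between the siRNAs.

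The difference was lost for BOLA3-AS1 without siCyclin K#1 replicate 3 (adjusted p = 0.051), for NRSN2-AS1 without siCyclin K#1 replicate 1 or siCyclin K#2 replicate 3 (up to 0.056), for FGD5-AS1 without siCyclin K#1 replicate 2 or siCyclin K#2 replicate 1 (up to 0.06), for IPO9-AS1 without siCyclin K#2 replicate 2 or 3 (up to 0.082), and for GABPB1-AS1 without any library other than siCyclin K#1 replicate 3 (up to 0.14). The other 12 differences passed the threshold whichever library was left out. After median-ratio rescaling and after quantile normalization no difference changed direction, and only that of GABPB1-AS1 lost its call (0.19, adjusted p = 0.13, and 0.18, adjusted p = 0.14).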

How the results depend on the processing

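With both siRNAs against scrambled siRNA, 65 antisense RNAs were called, and 43 to 66 when a library was left out, the fewest without scrambled siRNA replicate 3. The same-numbered libraries did not deviate together (correlations from -0.07 to 0.04 over 11243 genes). This cannot tell whether they were prepared together. With the replicate block the count was 51, all among the 65. For siCyclin K#1, siCyclin K#2 and their direct difference it was 98, 63 and 54, against 105, 73 and 58. A minimum mean FPKM of 1 left 83 members. Of these 33 were called (47 with siCyclin K#1, 35 with siCyclin K#2, 31 in the direct comparison), or 29 (42, 34 and 26) with all genes tested as before. Fewer members were tested here. The share of all genes called at that minimum is not given, so that no excess can be read from these counts. With limma-voom on the recovered reads of 170 members 31 were called (59, 38 and 38). Fitting 3 groups and the mean of both siRNAs, where the spread does not hold the difference between the siRNAs, gave 98. The 9 members past a fold of 3 became 0 with a pseudocount of 1, which shrinks the fold of low genes, and 5 at a mean FPKM of at least 1. The median log2 fold change of the members, 0.0585, was -0.0664 at a mean FPKM of at least 1, -0.0131 after median-ratio rescaling, -0.0288 after quantile normalization, and 0.0447 to 0.0966 when a library was left out. The 40 changed ratios were 84 with a pseudocount of 1 and 14 of the 55 pairs with both means at 1 or more, 24 to 42 when a library was left out, 31 with the replicate block, and 40 with a trend in the variance; this alternative, the rescaling of the arrangements and the left-out libraries for RNA decay were chosen after seeing the data; the cause of the rise to 84 was not tested. The 87 sense genes called were 73 with the block. Of the 48 named antisense RNAs 25 were called in the main fit, and refits of the others had no call to lose. In 793 refits of the 48 no called fold change reversed and 44 refits lost a call. With the replicate block 5 calls were lost (AGAP2-AS1, EPHA5-AS1, PRR7-AS1, TMPO-AS1 and ZEB1-AS1). At 0.3 to 1 FPKM, where most members lie, depth limits what can be told: 11 of the 170 members with recovered reads had 3 reads or fewer in a scrambled library.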

Other observations

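Among the pairs with both genes called, those below were chosen after their values were seen. HHIP-AS1, head to head with the gene of the hedgehog-interacting protein HHIP, had 2.4, 3.0 and 2.67 FPKM with scrambled siRNA, 0.794, 1.09 and 1.19 under siCyclin K#1 and 1.22, 1.66 and 1.27 under siCyclin K#2. It fell by 1.12 on the log2 scale (limma, SE 0.19, adjusted p = 0.0018) with no overlap of the groups. HHIP fell by 0.85 (SE 0.22, adjusted p = 0.018, and 0.093 without scrambled siRNA replicate 1). CLIP1-AS1, within the gene of a microtubule plus-end protein, had 0.0982, 0.174 and 0.136 FPKM with scrambled siRNA and 0.229 to 0.549 in the siCyclin K libraries. It rose by 1.03 (SE 0.25, adjusted p = 0.011, and 0.056 without scrambled siRNA replicate 1), and CLIP1 rose by 1.56 (SE 0.07, adjusted p = 8.8e-07). CLIP1-AS1 was under 0.3 FPKM with scrambled siRNA and reached the minimum through the siCyclin K libraries.

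MAP3K20-AS1, which meets the stress kinase gene MAP3K20 tail to tail, had 0.452, 0.576 and 0.486 FPKM with scrambled siRNA, 0.964, 1.12 and 0.874 under siCyclin K#1 and 1.21, 0.929 and 0.909 under siCyclin K#2. It rose by 0.86 (limma, SE 0.15, adjusted p = 0.0020), while MAP3K20 fell by 0.49 (SE 0.06, adjusted p = 2.2e-04), from 24.9 to 25.6 FPKM to 17.1 to 18.9. EML2-AS1, with 95.0% of its exon bases in exons of the microtubule-binding gene EML2, had 0.432, 0.61 and 0.624 FPKM with scrambled siRNA and 0.762 to 1.47 in the siCyclin K libraries. It rose by 0.92 (SE 0.20, adjusted p = 0.0069), while EML2 fell by 0.42 (SE 0.09, adjusted p = 0.0062).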
